A study of Mus musculus with 2 samples.

Results

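A small group of CpG-rich promoters lacked a DNase-seq peak in gastrocnemius, the large muscle of the calf. They were the 109 protein-coding genes on chromosomes 1 to 19 that had a coding transcription start of high CpG content and no peak of either library near any of their coding starts. A start was CpG-rich when the 500 bp on either side had a CpG observed/expected ratio of 0.6 or more and a GC content of 55% or more. The ratio sets the number of CpG dinucleotides against the number that the C and G content would give. No peak was allowed to overlap that window at any coding start of the gene. Of 20722 protein-coding genes, 9530 had a CpG-rich start, and the 109 were 1.14% of these (95% Wilson interval 0.949% to 1.38%, counting error only). A peak was present in both libraries at 9311 CpG-rich promoters, in replicate 1 only at 83 and in replicate 2 only at 27. Because the genes were chosen by the absence of peaks, every value of cleavage at their starts is a description and was not tested.

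The assay finds accessible chromatin from the places where DNase I cuts the DNA of intact nuclei, and it was run on 1 group of mice in 2 libraries. The animals were B6CASTF1/J males, a hybrid of the B6 and CAST strains, aged 10 days. The 2 labels share a donor record and mention 3 males for each sample, without saying if their muscles were pooled. The spread between the libraries may therefore be technical in part, and no comparison of conditions was possible.

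Most mammalian promoters at CpG islands stay open in nearly every cell type, because unmethylated CpG-rich DNA disfavours stable nucleosomes and is bound by general activators such as SP, NRF1, ETS and NFY factors. Exceptions are known for promoters held by Polycomb complexes, typically those of developmental regulators, and for germ-cell promoters that are silenced by DNA methylation in somatic tissue. Chromatin marks and methylation were not measured here.

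Replicate 1 had 123255 peaks and 35695993 listed bases, and replicate 2 had 150088 peaks and 43782204 listed bases. A listed base is a position with a deposited false discovery rate (FDR) under 0.05. The median peak value, a signal scaled by the authors, was 0.729 in replicate 1 and 0.716 in replicate 2. All 10 markers of skeletal muscle that were examined, Myod1, Acta1, Ckm and Ttn among them, had a promoter peak in both libraries. Replicate 1 alone left 136 CpG-rich promoters without a peak (1.43%, 1.21% to 1.69%), and replicate 2 alone left 192 (2.01%, 1.75% to 2.32%).

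The letters of some of these starts show how CpG-dense sequence without a peak can be. The 200 bases before the start of 7 of the 109 genes are given 5′ to 3′ on the strand of the gene, in lower case with each CpG in capitals, from the GRCm38 (mm10) genome. No annotated exon lies in any of them. Apart from Srp54b, candidates were taken from the highest CpG ratio down within each list, so they do not represent the 109 as a group. Barx1 (chr13:48662798-48662997, plus strand) and Hoxd11 (chr2:74682123-74682322, plus strand) encode homeodomain factors. Slc25a31 (chr3:40708655-40708854, plus strand) encodes the ADP/ATP carrier of germ cells. Kcnj4 (chr15:79505242-79505441, minus strand) encodes an inward rectifier potassium channel, and Wnt3a (chr11:59290753-59290952, minus strand) a secreted signal of the early embryo. BC107364 (chr3:96452307-96452506, minus strand) stands for the genes in repeated sequence. Srp54b (chr12:55154904-55155103, plus strand) has the same letters as Srp54c (chr12:55229968-55230167, plus strand). Srp54c had a peak in replicate 2, outside these 200 bases and near the far edge of its window. This pair was chosen after its values were seen.
Barx1: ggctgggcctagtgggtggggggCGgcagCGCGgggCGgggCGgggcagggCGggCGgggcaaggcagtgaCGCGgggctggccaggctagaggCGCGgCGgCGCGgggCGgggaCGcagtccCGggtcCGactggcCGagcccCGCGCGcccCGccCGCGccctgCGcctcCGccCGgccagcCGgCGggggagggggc
Hoxd11: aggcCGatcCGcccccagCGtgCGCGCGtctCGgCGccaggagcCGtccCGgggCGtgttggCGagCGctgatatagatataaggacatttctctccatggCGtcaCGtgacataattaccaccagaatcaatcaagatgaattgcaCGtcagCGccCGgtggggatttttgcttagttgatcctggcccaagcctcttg
Slc25a31: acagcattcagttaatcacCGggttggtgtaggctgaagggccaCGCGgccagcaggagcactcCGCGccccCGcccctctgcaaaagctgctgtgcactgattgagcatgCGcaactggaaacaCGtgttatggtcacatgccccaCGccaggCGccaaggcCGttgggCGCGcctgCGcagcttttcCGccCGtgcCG
Kcnj4: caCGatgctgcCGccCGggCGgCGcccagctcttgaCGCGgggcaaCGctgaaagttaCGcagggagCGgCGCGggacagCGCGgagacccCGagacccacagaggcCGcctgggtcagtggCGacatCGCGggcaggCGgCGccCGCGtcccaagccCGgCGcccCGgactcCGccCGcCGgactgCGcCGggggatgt
Wnt3a: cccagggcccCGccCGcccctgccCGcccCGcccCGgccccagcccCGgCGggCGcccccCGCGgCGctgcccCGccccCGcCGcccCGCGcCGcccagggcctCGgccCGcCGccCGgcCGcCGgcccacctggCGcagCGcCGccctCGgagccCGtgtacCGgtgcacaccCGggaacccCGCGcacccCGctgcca
BC107364: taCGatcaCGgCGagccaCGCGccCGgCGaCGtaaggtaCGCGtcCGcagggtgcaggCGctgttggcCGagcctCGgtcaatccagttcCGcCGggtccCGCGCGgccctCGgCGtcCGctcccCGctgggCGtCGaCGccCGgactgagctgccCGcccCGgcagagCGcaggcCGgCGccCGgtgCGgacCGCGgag
Srp54b: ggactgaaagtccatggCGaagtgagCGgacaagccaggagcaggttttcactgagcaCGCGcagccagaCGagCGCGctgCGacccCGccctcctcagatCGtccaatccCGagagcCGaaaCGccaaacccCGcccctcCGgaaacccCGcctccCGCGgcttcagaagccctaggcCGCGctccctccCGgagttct

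For comparison, the same stretch is given for 2 promoters with a peak in both libraries. Mef2a (chr7:67372859-67373058, minus strand) encodes a transcription factor of muscle genes, and Ywhaz (chr15:36793838-36794037, minus strand) a housekeeping protein of the 14-3-3 family.
Mef2a: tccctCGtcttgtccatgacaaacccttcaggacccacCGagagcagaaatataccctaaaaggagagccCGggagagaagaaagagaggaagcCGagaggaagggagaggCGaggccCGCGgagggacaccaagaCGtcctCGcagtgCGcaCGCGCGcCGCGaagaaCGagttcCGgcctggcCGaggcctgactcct
Ywhaz: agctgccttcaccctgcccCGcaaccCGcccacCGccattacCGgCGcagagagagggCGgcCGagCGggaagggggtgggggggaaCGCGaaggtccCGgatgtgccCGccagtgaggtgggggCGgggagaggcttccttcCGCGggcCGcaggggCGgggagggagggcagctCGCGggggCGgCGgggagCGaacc
The Wnt3a stretch held 33 CpG and was 89.0% G and C, the Barx1 stretch held 30 CpG at 86.0%, and the Kcnj4 stretch 31 CpG at 76.5%. Hoxd11 had 18 CpG at 57.5% and Slc25a31 17 CpG at 64%. The open promoters lay in the same range, with 18 CpG at 62.0% in Mef2a and 22 CpG at 76.5% in Ywhaz. Over all genes the median GC content of these 200 bases was 66.0% at the 109 promoters without a peak and 67% at the 9311 with a peak in both libraries. A GC content of 80% or more was found in 7 of the 109 (6.42%) and in 615 of the 9311 (6.61%).

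The 109 promoters fell into separate kinds by how often their sequence occurs in the genome. Each window of 1001 bp around a start was read as overlapping 36-base words (36-mers), and each word was counted over chromosomes 1 to 19, X and Y. In 63 genes at most 10% of the words occurred more than once, and these are called single-copy below. In 40 genes at least 50% of the words were repeated, and 6 genes lay between. Among CpG-rich promoters with no repeated word, 52 of 7608 (0.684%) lacked a peak. Among those in which every word was repeated, 35 of 37 (94.6%, 82.3% to 98.5%) lacked one. Between these ends the shares were 11 of 1500, 6 of 323, 2 of 52 and 3 of 10 as the repeated share rose. Restricted to single-copy windows, the background was 63 of 9108 promoters, or 0.692%.

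**Figure D1:**
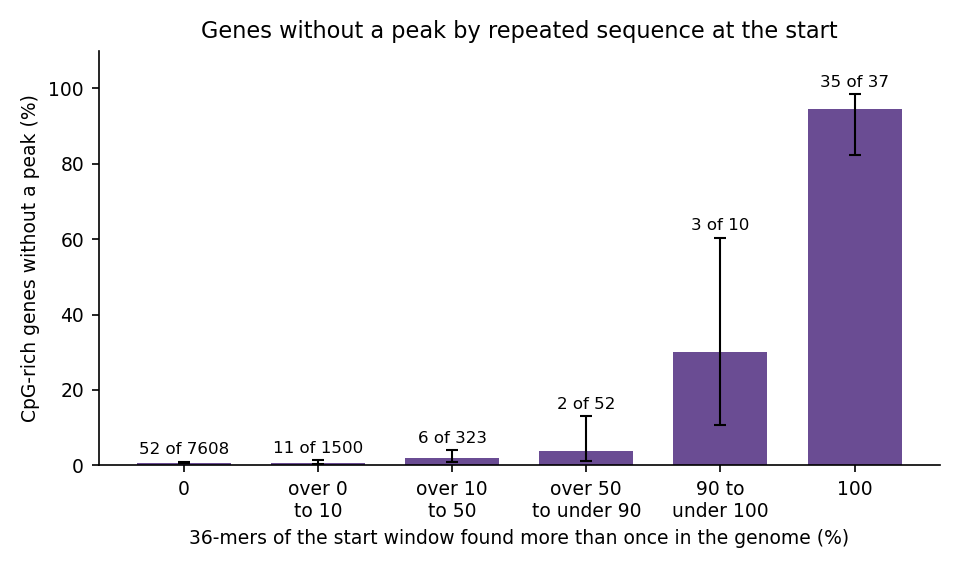
Bars show the percentage of CpG-rich genes without a peak in either library, by the percentage of 36-mers of the start window that occur more than once in the genome. Error bars are 95% Wilson intervals and the numbers give genes without a peak of all genes in the class, 52 of 7608 where no word was repeated and 35 of 37 where every word was.

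The sources used here give neither the read length nor the handling of reads that match several places. How far repeated sequence accounts for the missing peaks was not tested. None of the 40 genes in repeated sequence had a listed base at the start that defined it. Words of other lengths were not counted.

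Most of the genes in repeated sequence shared their words with another CpG-rich start. When windows sharing at least 50% of their words were joined, the 40 genes formed 19 groups. Of these groups 13 held more than 1 CpG-rich gene and together 34 of the 40. A cluster of 8 predicted single-exon genes on chromosome 4, with starts from 88776922 to 88803254, had 6 without a peak. These 6 were Gm13272, Gm13276, Gm13278, Gm13279, Gm13287 and Gm13289, with every word repeated. The other two, Gm13275 (1.38 in replicate 1 and 1.44 in replicate 2) and Gm13277 (1.27 and 2.44), had 96.3% of their words repeated. The histone genes Hist1h2ao, Hist1h2ap, Hist1h2bq and Hist1h2br on chromosome 13 all lacked a peak. Their windows overlap in pairs, since each H2A gene starts 268 bp or 236 bp from an H2B gene.

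Chromosome 14 held 16 of the 40, and 18 of all 109 genes, which was 5.13% of its 351 CpG-rich promoters. They included the triplicated Plac9a, Plac9b and Gm9780, their neighbours Tmem254a, Tmem254b and Tmem254c, and a duplicated block with Entpd4 and Entpd4b, Slc25a37 and Gm16867, and Loxl2. Entpd4 and Entpd4b encode nucleoside diphosphatases of the secretory pathway, Slc25a37 the mitochondrial iron importer mitoferrin, and Loxl2 a lysyl oxidase of the extracellular matrix. The windows of Entpd4 and Entpd4b were identical, as were those of Slc25a37 and Gm16867. Chromosome 4 held 10 of the 40, chromosome 13 held 5 and chromosome 12 held 4. On chromosome 19 none of 335 CpG-rich promoters lacked a peak.

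Windows of identical letters did not always carry identical calls, as a peak had to overlap a window by only 1 bp. The windows of Srp54b and Srp54c, genes for a subunit of the signal recognition particle, were the same over all 1001 bp. Srp54b had no peak, and Srp54c had a peak of 0.276 in replicate 2 and none in replicate 1. That peak began 31052 bp after the 1700047I17Rik2 start at 55199592, near the far edge of the Srp54c window. How much of it lay within the identical letters was not counted. The only other CpG-rich promoter with a peak and with every word repeated was Gm3448, at 0.609 in replicate 1 and 0.704 in replicate 2. It belongs to a group on chromosome 17 with Ermard, Tcte3, Gm3417 and Gm3435, of which Gm3417 and Gm3435 had no peak. Hist2h3c1, a histone H3 gene on chromosome 3, had no peak, while its copy Hist2h3c2 had 0.810 in replicate 1 and 1.34 in replicate 2, both with 96.3% of their words repeated.

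The remaining genes in repeated sequence included the chromosome 4 genes Gm20878, Gm21586 and Gm21953 with identical windows, and the neighbours Fam177a and 1700047I17Rik2 on chromosome 12. On chromosome 14 they included Gm10409, Gm3020, Gm3488, Gm3373 and Gm3500. The last 5, like Loxl2, shared at least 50% of their words with no other CpG-rich window. These 5 were BC107364, Cntfr, Gm21863, Gm9817 and Zfp433. Cntfr, the receptor of ciliary neurotrophic factor, was repeated at the start with the highest CpG ratio of all 109 genes, 1.03. At another of its 3 coding starts it had 60 listed bases in replicate 1 and 55 in replicate 2, and a peak lay at one of its noncoding starts in both libraries. The 6 genes between the classes were Prr23a1, Prr23a3, Oxct2b, H2-Q1, Gm5868 and Gm12184, with 12.8% to 47.2% of their words repeated.

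Some of the single-copy genes stood on lists of lineage transcription factors, germ-cell genes and genes of neurons. Gene lists were chosen with earlier results known, so their counts are descriptions beside the 1.14% of all CpG-rich genes. Of 109 genes 34 stood on at least 1 list of named families, and 32 of these 34 were single-copy. The same count was not made over all CpG-rich genes, so the 34 cannot be set against a background share.

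Of 100 CpG-rich lineage transcription factors, 11 (11.0%) had no peak in either library, 15 had a peak in 1 library and 74 in both. The 11 were Barx1, a factor of stomach and tooth development, Nkx2-1 of thyroid and lung, Skor1, Evx2 and Fezf2 of neurons, Pou4f3 of hair cells, Sox1 of the neural plate, Ptf1a of pancreas and inhibitory neurons, Phox2a of autonomic neurons, T of early mesoderm and Cdx2 of the gut. All were single-copy, and their CpG ratios ran from 0.637 in Cdx2 to 0.882 in Barx1. Listed bases at the start were few. Ptf1a had 0 in replicate 1 and 15 in replicate 2, Phox2a had 5 and 0, Skor1 had 0 and 1, and the other 8 had none in either library.

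Promoter values on this list were lower at the median than over all CpG-rich promoters. The median promoter value of the 74 with a peak in both libraries was 0.911 in replicate 1 and 0.719 in replicate 2, against 6.04 and 8.59 over the 9311 CpG-rich promoters with a peak in both. Over all peaks of the genome the medians were 0.729 and 0.716. A value under 1 was found at 40 of the 74 (54.1%) in replicate 1 and at 45 (60.8%) in replicate 2. Over the 9311, 5.53% lay under 1 in replicate 1 and 6.18% in replicate 2. The 11 without a peak had a median CpG ratio of 0.817, above the 0.788 of the 74. Their flanks were rich in CpG in the same way, with a median of 2.98 CpG per 100 bp at 1 to 3 kb from the start, against 2.91 at the 74 and 1.13 over the 9311.

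Around the 11 factors, open chromatin was present at some distance. Fezf2 had its nearest peak 666 bp from the start in replicate 1 (value 0.587) and 952 bp in replicate 2 (0.323). Pou4f3 had one at 1146 bp in both libraries, of 3.78 in replicate 1 and 1.48 in replicate 2, and Skor1 one at 2240 bp and 2220 bp, of 3.76 and 3.10. Among the 11, Sox1 had the widest gap between libraries, with a peak 5703 bp away in replicate 1 and 34846 bp away in replicate 2. T had its nearest peak at 10823 bp in replicate 1 and 10856 bp in replicate 2.

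Among 24 CpG-rich Hox genes, which set position along the body and limb axes, 3 (12.5%) had no peak, 2 had a peak in 1 library and 19 in both. The 3 were Hoxd13, Hoxd11 and Hoxb9. The posterior Hoxd genes pattern the distal limb. Hoxd13 (start at 74668310 on chromosome 2) and Hoxd11 (start at 74682323) had no listed base at the start, but their loci held much listed sequence in one library. Locus cover, meaning how much of the gene and of 10 kb on either side consisted of listed bases, was 12.0% in replicate 1 and 1.51% in replicate 2 for Hoxd13, and 13.2% and 3.42% for Hoxd11. Evx2 lies next to Hoxd13, and these genes formed one of the 11 runs of neighbouring coding genes without a peak. Hoxb9 had a cover of 3.64% in replicate 1 and 3.94% in replicate 2, with its nearest peak at 7378 bp and 1403 bp.

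Other families of developmental factors held few genes without a peak, and T and Sox1 were already among the 11 lineage factors. Of 33 CpG-rich forkhead factors, 3 had no peak: Foxl1 of gut mesenchyme, Foxn4 of retina and spinal cord, and Foxr1. Of 8 T-box factors, T and Tbx1, a factor of the pharyngeal arches, had none. Tbx1 had one of the highest CpG ratios of the 109, 1.03, with the nearest peak 4745 bp away in replicate 1 and 14572 bp away in replicate 2. Sox1 was the single one of 13 SOX factors. Of 162 genes named Zfp, 3 (1.85%) had no peak. They were Zfp541 and Zfp296, single-copy, and Zfp433, in repeated sequence.

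Of 33 CpG-rich genes of meiosis and germ cells, 5 (15.2%) had no peak, 6 had a peak in replicate 1 only and 22 in both libraries. Spo11 encodes the enzyme that makes the breaks starting meiotic recombination, and Mei1 acts in the same step. Fkbp6 and Mov10l1 act in the piRNA pathway that silences transposons, and Slc25a31 is the carrier shown above. None of the 5 had a listed base at a coding start in either library. Their CpG ratios overlapped those of the lineage factors, with 0.773 in Fkbp6, 0.752 in Slc25a31, 0.650 in Mei1, 0.640 in Spo11 and 0.604 in Mov10l1. The median was 0.650, against 0.748 at the 22 germ-cell genes with a peak in both libraries, and the CpG ratio was part of the rule.

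The loci of these germ-cell genes differed, and only that of Slc25a31 held no peak in either library. Slc25a31 had its nearest peak at 14135 bp in both libraries, and its locus cover was 0% in replicate 1 and 0.123% in replicate 2. Mov10l1 had its nearest peak at 28194 bp in replicate 1 and 4274 bp in replicate 2, where its locus held 13 peaks against 1 in replicate 1. Mei1 had a peak of 2.17 in replicate 1 and 3.03 in replicate 2 at 4176 bp. Spo11 had a peak at a noncoding start in replicate 1. Its locus cover was 5.15% in replicate 1 and 5.99% in replicate 2, with 6 peaks in each library. Fkbp6 had a cover of 0.716% in replicate 1 and 1.15% in replicate 2. No gene named Spata, Tssk, Catsper or Tex, 17 in all with a CpG-rich start, was without a peak in both libraries. At the 1.14% of all CpG-rich genes, a list of that size would mostly hold none. The 22 germ-cell genes with a peak in both had median values of 2.69 in replicate 1 and 2.59 in replicate 2.

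**Figure D2:**
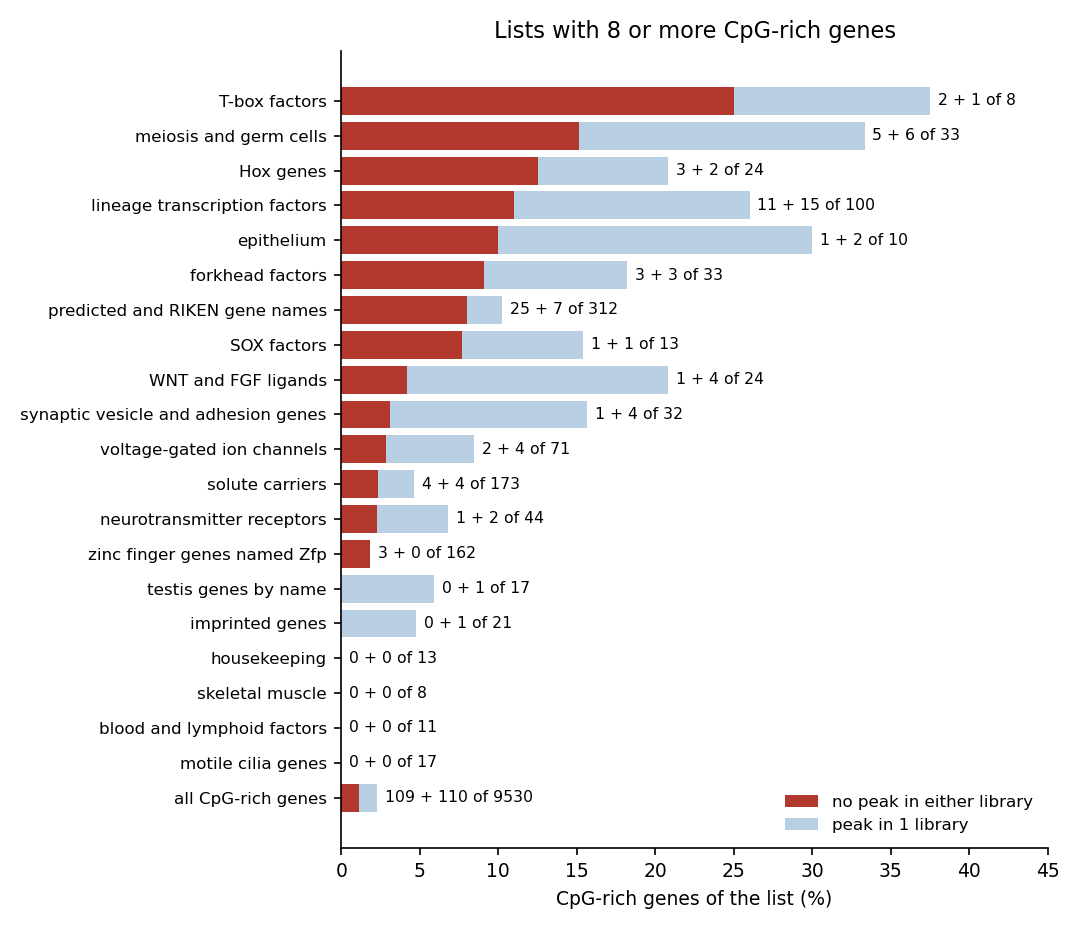
Bars show the percentage of CpG-rich genes without a peak in either library (red) and with a peak in 1 library (light blue), for each list with 8 or more CpG-rich genes and for all CpG-rich genes in the lowest row. The numbers give genes without a peak, genes with a peak in 1 library and CpG-rich genes of the list, 11 + 15 of 100 for lineage transcription factors and 109 + 110 of 9530 for all.

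Genes of the nervous system were few on each list. On the list named for voltage-gated channels, which also took in the inward rectifier gene Kcnj4, Kcnj4 was without a peak. It held more listed bases at its start than any other of the 109, with 91 in replicate 1 (lowest FDR 0.00105) and 157 in replicate 2 (lowest FDR 2.6e-04), and its nearest peaks lay 780 bp and 760 bp away. Of 44 neurotransmitter receptors, only the dopamine receptor gene Drd5 had none, with no peak in its locus in either library. Of 32 genes of synaptic vesicles and adhesion, only Slc18a3 had none, the vesicular transporter that loads acetylcholine in motor neurons. Its nearest peak lay at 2871 bp in both libraries, with 2.60 in replicate 1 and 1.82 in replicate 2.

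The last genes on the lists were Wnt3a, 1 of 24 WNT and FGF ligands, the tight junction gene Cldn6, 1 of 10 epithelial genes, and the zinc transporter Slc30a2, 1 of 173 solute carriers beside Slc18a3, Slc25a31 and Slc25a37. Wnt3a had 25 listed bases in replicate 1 and 0 in replicate 2. Cldn6 had a locus cover of 11.1% in replicate 1 and 17.4% in replicate 2, where it was the highest of the 109. No CpG-rich promoter lacked a peak among 8 skeletal muscle genes, 13 housekeeping genes, 21 imprinted genes, 17 motile cilia genes and 11 blood and lymphoid factors. The same held for 5 pluripotency genes, 3 neuropeptides and 2 clustered protocadherins. At the 1.14% of all CpG-rich genes, lists of these sizes would mostly hold none. Of 312 genes with predicted or RIKEN names 25 (8.01%) had no peak, and 2 of the 25 were single-copy.

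The other 31 single-copy genes stood on none of these lists, leaving aside that of predicted and RIKEN names. As background, several are known from neurons: Chd5, a chromatin remodeller, Fev of serotonin neurons, Skor2 of Purkinje cells, Rfx4, Jph3, Hcn2, Prmt8, Ptprn, Baiap3, Epha8, Epha10, Tmem132d, Tmem151b and Vstm2l. Others are known from testis: Papolb, a poly(A) polymerase, D1Pas1, a helicase, Prss50, Lypd4, Ptchd3 and Btbd18. Irx4 marks the heart ventricle. The rest were Ap1m2, an adaptor of epithelial sorting, Degs2, Sec1, Plk5, Arid3c, Sfi1, Cysrt1, Rnf208, Gm4881 and 4933428G20Rik. This grouping was made after their names were seen, and it carries no count. Jph3 had a CpG ratio of 1.02, 4933428G20Rik 0.930 and Chd5 0.919. Cysrt1 and Rnf208 start 197 bp apart in opposite directions on chromosome 2, so their windows are largely the same sequence.

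Traces of cleavage were found at few of the 109 starts. A listed base lay within 500 bp of a coding start at 8 genes in replicate 1 and at 7 in replicate 2, at 12 in either and at 3 in both, Kcnj4, Cntfr and Vstm2l. At 2 of these 3 the libraries listed the same base. Vstm2l had 9 listed bases in replicate 1 and 16 in replicate 2, with peaks of 6.05 and 3.99 at 1033 bp. The genes with listed bases in one library only were Tmem151b (27), Wnt3a (25), Arid3c (24), D1Pas1 (7) and Phox2a (5) in replicate 1, and Ptf1a (15), Gm5868 (13), Epha8 (2) and Skor1 (1) in replicate 2. Outside Kcnj4 and Cntfr the lowest FDR at these genes was 0.0328. No footprint, a short stretch protected from cleavage, was centred within 500 bp of the CpG-rich start of highest ratio at any of the 109. Other coding starts were not searched for footprints. With peaks counted at the starts of noncoding transcripts too, 5 of the 109 gained one: Phox2a, Sfi1 and Cntfr in both libraries, and Chd5 and Spo11 in replicate 1.

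Peaks lay closer to the single-copy promoters than to those in repeated sequence. The median distance from the start to the nearest peak was 3888 bp in replicate 1 and 4274 bp in replicate 2 for the 63 single-copy genes, and 47952 bp and 43546 bp for the 40 genes in repeated sequence. A peak lay within 5 kb in both libraries at 34 of the 63 and at 9 of the 40, and at 61 of the 110 genes with a peak in 1 library. Distances from other positions of the genome were not counted, so the 34 have no background share. The distance was over 50 kb in both libraries at 19 genes, all of them among the 40, with Gm21953 farthest at 520027 bp and 520007 bp. By the shorter of the 2 distances, the farthest in single-copy sequence were Papolb (20185 bp in replicate 1 and 19227 bp in replicate 2), Ptchd3 (17754 bp and 17774 bp), Lypd4 (14269 bp in both) and Slc25a31. The libraries placed the nearest peak within 100 bp of the same distance at 36 of the 63.

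**Figure D3:**
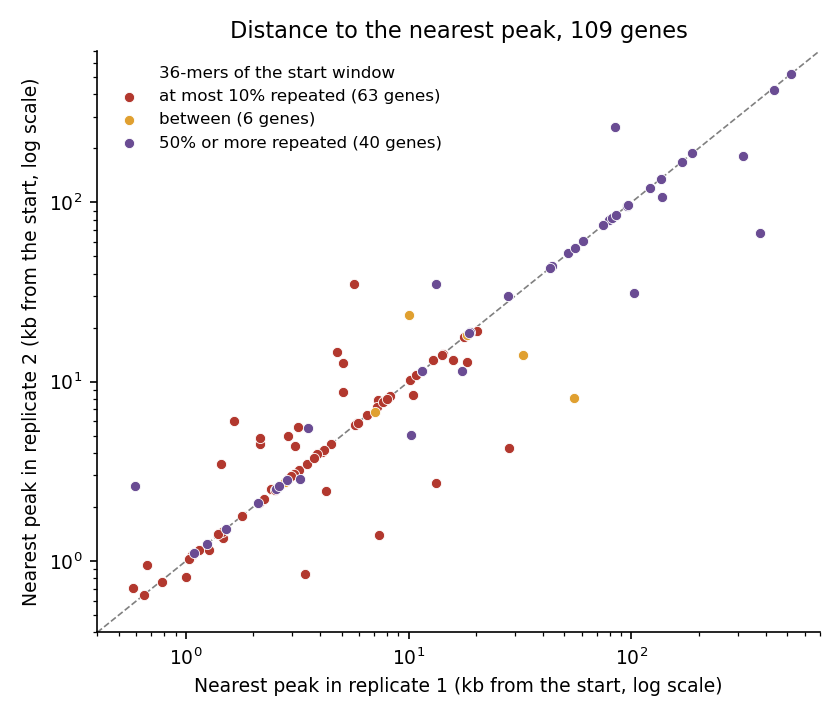
Each point is 1 of the 109 genes, placed by the distance in kb from its start to the nearest peak in replicate 1 and in replicate 2, both on log scales, with the dashed line marking equal distance. Single-copy genes (red) gather around a few kb and genes in repeated sequence (purple) reach 520027 bp.

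Locus cover followed the same split. Its median was 2.26% in replicate 1 and 2.69% in replicate 2 around the 63 single-copy genes, and 0% in both around the 40 in repeated sequence, against 3.99% and 4.44% around the 9311 CpG-rich genes with a peak in both libraries. The locus includes the start window, so part of the gap to the 9311 follows from the rule. In that window the 9311 had a median of 868 listed bases in replicate 1 and 866 in replicate 2, and the 63 had 0 in both. No peak lay anywhere in the locus, in either library, at 5 of the 63 and at 24 of the 40. The 5 were Drd5, Foxr1, Lypd4, Papolb and Slc25a31. The median value of the nearest peak was 1.15 in replicate 1 and 1.18 in replicate 2 for the 63. The highest cover of the 63 in replicate 1 was 13.2%, at Hoxd11 and at Sfi1, whose 33 exons and noncoding starts lie among 37 peaks.

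The 109 stood at the low end of CpG content within the chosen range, although the rule fixed that range. Their median CpG ratio was 0.727, with 0.748 at the single-copy genes and 0.662 at those in repeated sequence, against 0.808 at promoters with a peak in both libraries. GC content differed less, with medians of 61.2% over the 109 and 62.9% at promoters with a peak in both. Dinucleotides TpG and CpA, to which methylated CpG decays by mutation, had a median observed/expected ratio of 1.07 at the 109 and 1.05 at the single-copy genes. It was 1.01 at promoters with a peak in both. Promoters with a peak in 1 library lay close to the single-copy genes, at 1.05 for TpG and CpA and 0.746 for the CpG ratio. The source of these differences was not tested.

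Across genes with a GC content of 55% or more, the share without a peak fell steeply as the CpG ratio rose. It was 58.3% under a ratio of 0.2, 29.1% from 0.3 to 0.4, 4.32% from 0.5 to 0.6 and 2.69% from 0.6 to 0.7. From 0.7 upwards it stayed between 0.601% and 0.842% in all 4 classes. The genes that just met the ratio were Plac9a and Plac9b at 0.602 and Gm13276 at 0.602, and among those that just missed it were Prr36 at 0.599 and Gm13290 at 0.598. For GC content they were Zfp433 (55.04%), Gm3417 (55.1%) and Rfx4 (55.3%) on the inside, and Helt (54.9%), Hoxb8 (54.7%) and Gm10837 (54.7%) on the outside. The nearest peak lay 581 bp from the start at Foxl1 and 591 bp at Gm13272, both just inside, and 484 bp at Olig2, 468 bp at Ghsr and 454 bp at Hoxc11, just outside among genes with 1 coding start.

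**Figure D4:**
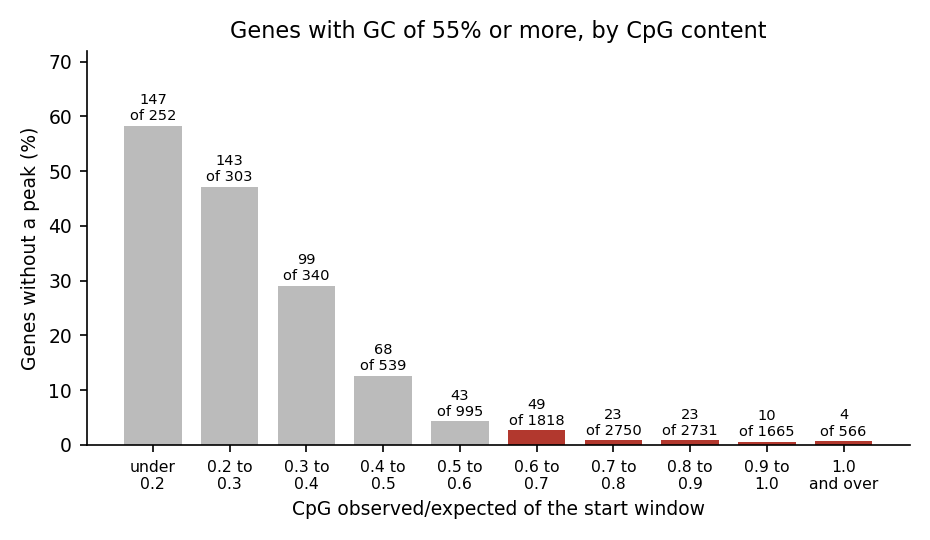
Bars show the percentage of genes without a peak in either library among genes with a start of 55% GC or more, by the CpG observed/expected ratio of that start, and the numbers give genes without a peak of all genes in the class. Red bars mark the CpG-rich range, where the share is 2.69% from 0.6 to 0.7 and at most 0.842% above.

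CpG density differed with distance from the start. Within 100 bp of the start it averaged 10.3 CpG per 100 bp at the single-copy genes and 8.78 at those in repeated sequence, against 11.0 at promoters with a peak in both libraries. At 500 to 1000 bp it averaged 3.17 at the single-copy genes and 2.38 at those in repeated sequence, against 3.16. At 1 to 3 kb it averaged 1.94 at the single-copy genes and 1.66 at those in repeated sequence, against 1.29. By the median over genes, the single-copy genes had 1.65 at 1 to 3 kb, while those in repeated sequence and those with a peak in both libraries had 1.13 each. The flank after the start was the richer one, with 2.30 CpG per 100 bp at the single-copy genes against 1.39 at promoters with a peak in both. Before the start the values were 1.57 and 1.20.

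**Figure D5:**
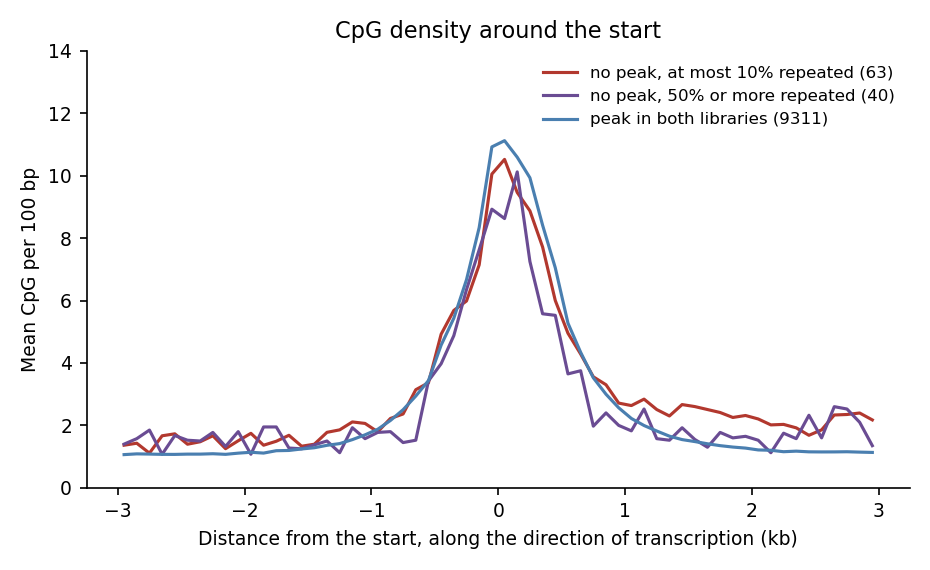
Lines show the mean number of CpG per 100 bp by distance from the start, along the direction of transcription, for single-copy genes without a peak (red, 63), genes without a peak in repeated sequence (purple, 40) and genes with a peak in both libraries (blue, 9311). The red line lies below the blue one at the start and above it beyond 1 kb after the start.

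The genes had a median of 4 exons, and the single-copy ones 5. CpG-rich genes with a peak in both libraries had a median of 10, and those with a peak in 1 library 5. A single exon was annotated at 21 of 109 (19.3%), of which 6 were single-copy and 11 in repeated sequence, against 243 of 9311 (2.61%). The single-copy ones were Drd5, Slc18a3, Sox1, Foxl1, Papolb and D1Pas1. The coding start of another gene lay within 1 kb at 11 of the 109 (10.1%) and at 1818 of the 9311 (19.5%). A single coding start was annotated at 52 of the 109 (47.7%) and at 2521 of the 9311 (27.1%), so a peak was sought at fewer starts in genes without one. These traits were not particular to the 109. Of the 110 genes with a peak in 1 library, 52 (47.3%) had a single coding start and 10 (9.09%) a single exon. The single-exon share of the single-copy genes was 9.52%. Another start lay within 1 kb at 4 of the 110 (3.64%).

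Motifs of activators of CpG-island promoters were counted in the 250 bp before to 50 bp after the start, as exact letters on both strands. Those letters were CCGGAAG for ETS factors, GGGCGGG for SP and KLF factors, GCATGCGC for NRF1, CCAAT for NFY, TGACGTCA for CREB (CRE), AAGATGG for YY1, TCTCGCGAG for BANP and ACTACAA for ZNF143. The ETS letters were found in 4 of the 63 single-copy promoters (6.35%) and in 12 of the 109 (11.0%), against 18.3% of promoters with a peak in both libraries and 12.1% of all protein-coding genes. The SP and KLF letters were found in 47.6% of the 63 and 42.2% of the 109, against 58.7% and 35.8%. The NFY letters were found in 25.4% and 31.2%, against 33.6% and 36.6%. None of the 7 motifs other than that of SP and KLF was found in 39 of the 63 (61.9%) and 61 of the 109 (56.0%), against 43.6% of promoters with a peak in both. Few of these motifs was not particular to the 109, as 59.1% of the 110 promoters with a peak in 1 library held none of the 7. Those 110 had the ETS letters in 3.64%, the NFY letters in 31.8% and the SP and KLF letters in 57.3%. These are descriptions of short letter strings and not counts of bound sites.

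The NRF1 letters were found at 5 of the 63 single-copy genes (7.94%), against 5.596% at promoters with a peak in both. Over all 109 the share was lower than at those promoters, at 4.59%, and over all protein-coding genes it was 3.54%. NRF1 is an activator whose binding is blocked by CpG methylation. Of these 5 genes 4 were the germ-cell genes Fkbp6, Mov10l1, Slc25a31 and Spo11, and the fifth was Foxn4. The letters are in the Slc25a31 stretch printed above. Among the other germ-cell genes with a CpG-rich start, 0 of 6 with a peak in 1 library and 2 of 22 with a peak in both held them. None of the 11 lineage factors without a peak did. The E-box letters CACGTG were also frequent in the germ-cell genes without a peak, at 4 of 5. They were found in 4 of 6 germ-cell genes with a peak in 1 library and in 6 of 22 with a peak in both. The NRF1 pattern was noticed in these data, rests on 4 genes and was not tested, and neither was that of the E-box.

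The other motifs were counted in the same way. The E-box CACGTG was found in 9 of the 63 (14.3%), against 10.9% at promoters with a peak in both and 8.07% over all genes. The E2F letters GGCGGGAA, which can overlap those of SP and KLF, were found in 3.17%, against 5.19% and 3.13%. The letters AGGGGGC of the CTCF core were found in 9.52%, against 19.9% and 12.8%, and TATAAA in 3.17%, against 4.36% and 12.1%. CRE was found in 1.59%, against 3.54% and 2.52%, YY1 in 3.17%, against 7.33% and 6.71%, and BANP in 1.59%, against 1.60% and 0.864%. The ZNF143 letters and the left part of the REST element, TTCAGCACC, were in none of the 109, against 3.22% and 0.301% at promoters with a peak in both and 3.67% and 0.367% over all genes. They were also in none of the 110 promoters with a peak in 1 library. Those 110 held the YY1 letters in 3.64%, CRE in 3.64%, the CTCF letters in 22.7% and TATAAA in 9.09%.

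At promoters with a peak in 1 library, the peak value had a median of 0.555 at the 83 of replicate 1 (0.207 to 2.11) and 0.470 at the 27 of replicate 2 (0.106 to 1.19). Of the 83 and the 27, 20 and 11 had a listed base in the other library as well. They held 15 of the 100 lineage factors, 11 in replicate 1 and 4 in replicate 2, and 6 of the 33 germ-cell genes, all in replicate 1. Their median CpG per 100 bp at 1 to 3 kb was 1.48, where the single-copy genes without a peak had 1.65 and promoters with a peak in both had 1.13.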

How the data were processed

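DNase-seq libraries of 1 group (replicates 1 and 2) were used as deposited, per the labels on mm10. Peak values are a deposited signal, scaled by the authors, and the deposited per-position FDR is a p-value type of number that lists only positions under 0.05. Each library had its own wider and stricter peak set, and the wider one was used. Footprints carried 0.01 on every line, so only positions were used. The aligner, the callers and the read depth were not given in the sources used here.

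Coding starts came from GENCODE M21 and sequence from GRCm38. Where a gene had several CpG-rich starts, the one with the highest CpG ratio gave its sequence, distance and motif values, while peaks and listed bases were counted at all coding starts. A peak overlapped by at least 1 bp. Word counts were checked on simulated data. Python 3.11.15, numpy 2.4.6, pandas 2.3.3, numba 0.67.0, scipy 1.17.1 and matplotlib 3.10.9 were used. Single-copy genes had at most 10% repeated 36-mers, and in the alternative on sequence also at most 50% soft-masked bases.

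The genes and lists were chosen with earlier results of these data known. Named were, per list, up to 5 genes of highest CpG ratio, the 10 with most listed bases, the 10 farthest from and the 5 nearest to a peak, 3 on each side of a threshold, and the 5 longest runs of neighbours. Further names account for the other genes, apart from items that are not reported here. All list symbols but 1, Dmd on the X chromosome, matched. No test was run, since the rule used the peaks. Alternatives varied libraries, peak set, window, overlap, CpG and GC limits, starts and repeats.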

Additional observations from a re-analysis of the deposited data

How the results depend on the processing

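The number of CpG-rich genes without a peak stayed within 1.5 times of 109 under most settings. It was 47 at a CpG ratio of 0.75 or more, 63 at a GC of 60% or more, 63 in single-copy sequence and 270 with the stricter peak set, and leaving out 1 library gave 136 to 192. As a percentage it was 0.734, 0.902, 0.692 and 2.83 in that order, 1.55 with peaks within 250 bp, and 1.43 to 2.01 with 1 library left out.

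Lineage factors numbered 7, 7 and 35 at the higher CpG ratio, the higher GC and the stricter set, and 15 to 22 with 1 library. Germ-cell genes numbered 2, 0 and 12, and 5 to 11. Genes with a listed base numbered 5 at the higher CpG ratio, 51 with peaks within 250 bp and 173 with the stricter set, and 19 to 27 with 1 library.

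The median distance to the nearest peak, averaged over the libraries, was 7216 bp. It was 4474 bp at the higher CpG ratio and at the higher GC, 3932 bp in single-copy sequence, 4005 bp with peaks within 250 bp and 2024 bp with the stricter set. It was 7627 bp with any start, 7997 bp without listed bases or with peaks within 1000 bp, 6924 bp with an overlap of 50 bp, 7407 bp with overlapping windows counted once, 6934 bp from the start farthest 5-prime, and 5310 bp to 6660 bp with 1 library.

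The median share of repeated words was 0.414%, and 0% at the higher CpG ratio, the higher GC, in single-copy sequence, with peaks within 250 bp, with the stricter set and with either library left out (0% to 0%). It was 3.11% without listed bases. The NRF1 letters were at 1.59% of genes at the higher GC. The causes of these shifts were not tested. No paired analysis was possible because there was 1 group.

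The sequencing depth is not known, so a missing peak means that none was detectable at this depth. Reads of CAST alleles were mapped to a B6 genome, and allelic mapping was not analysed here.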
